A study of Mus musculus with 231 samples.

Results

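The libraries described here are the 12 small RNA libraries of validation point 5, from 6 CM mice and 6 control (Ctrl) mice, of 231 libraries in the whole series. They are the columns whose name holds a mouse number followed by point 5, with the arm taken from the treatment label, and 1 library stands for 1 mouse. All 1817 mature miRNAs of the deposited validation table were looked up in them. Of these, 1597 were above 0 in at least 1 of the 12 libraries, 220 were at 0 in all of them, and 930 at 1 CPM or more in at least 6 libraries were tested. The results are given with and without CM mouse 2684.

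The study followed miRNA in mononuclear cells of the blood (PBMC) of mice on a C57BL/6 background on the way to acute myeloid leukemia (AML). In CM mice, Cbfb-MYH11 (CM), the mouse form of the fusion gene made by inversion of chromosome 16 in human AML, is knocked into the Cbfb gene (Cbfb56M/+/Mx1-Cre) and is switched on by poly(I:C), which drives the interferon-responsive Mx1-Cre. Mice of both arms were given 7 doses of poly(I:C) at 14 mg/kg, one every other day, from an age of 6 to 8 weeks, and Ctrl mice were littermates described as lacking the transgene. Which age or time after injection point 5 stands for is not given in the sources used here.

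The 6 CM mice (2684, 2685, 2686, 2700, 2709 and 2718) carried the genotype label CHW, and 4 were male and 2 female. The 6 Ctrl mice (2683, 2689, 2692, 2702, 2705 and 2720) carried CW in 3 mice, HW in 2 and WT in 1. The labels do not explain these codes. The study's methods also count littermates with Cbfb56M/+, floxed miR-126 or both among controls, so a Ctrl mouse may carry the Cbfb56M allele without Mx1-Cre, and which mice do is not given in the sources used here. All 3 CW mice were female and the other 3 Ctrl mice male, so genotype label and sex cannot be told apart within the Ctrl arm. Mx1-Cre is active in many tissues, and the blood cells were not sorted further, so each library mixes cell types, and how many leukemic cells it held was not measured here. A lower level may thus come from fewer cells of a type or from less of the miRNA per cell, which cannot be told apart.

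A miRNA is a short RNA that guides Argonaute proteins to messenger RNAs, mainly through its seed, bases 2 to 8 from the 5′ end, and lowers their translation and stability. A hairpin precursor can give a mature miRNA from either arm (5p or 3p). miR-126, made from an intron of the endothelial gene Egfl7, is abundant in endothelium, platelets and hematopoietic stem cells, and it restrains the cycling of stem cells. Mature lymphocytes are rich in miR-150, myeloid cells in miR-223, red cells in miR-451a and miR-486, and miR-142a is made throughout the blood lineages.

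The mature sequences of the miRNAs on which the results turn are shown 5′ to 3′ as RefSeq gives them (GRCm38.p6), with the seed in capitals. The first 9 are those that stood furthest above the other libraries in mouse 2684, apart from miR-126a-5p, and the next 6 are among the miRNAs of smallest p between the arms.
miR-126a-3p: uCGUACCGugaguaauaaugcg
miR-126b-5p: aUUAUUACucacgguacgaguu
miR-126b-3p: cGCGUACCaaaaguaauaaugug
miR-298-5p: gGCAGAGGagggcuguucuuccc
miR-296-3p: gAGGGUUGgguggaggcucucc
miR-31-5p: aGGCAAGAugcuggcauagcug
miR-212-5p: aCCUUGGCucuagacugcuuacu
miR-132-5p: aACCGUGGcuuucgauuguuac
miR-340-3p: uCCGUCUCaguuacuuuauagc
miR-7033-5p: uCUCCAGGagucugaggggcagg
miR-211-5p: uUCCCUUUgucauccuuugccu
miR-210-3p: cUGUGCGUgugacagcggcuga
miR-1968-5p: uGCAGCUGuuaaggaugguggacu
miR-128-3p: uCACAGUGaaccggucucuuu
miR-205-5p: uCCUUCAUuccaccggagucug
The last set is shown because its members share a seed in pairs, miR-99b-5p with miR-99a-5p and miR-221-3p with miR-222-3p, or lie beside each other, as miR-99b and miR-125a do.
miR-99b-5p: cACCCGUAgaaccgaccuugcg
miR-99a-5p: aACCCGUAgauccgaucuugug
miR-125a-5p: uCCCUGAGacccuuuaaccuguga
miR-221-3p: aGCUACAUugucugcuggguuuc
miR-222-3p: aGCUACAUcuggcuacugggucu

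Of these, miR-126a-3p lies at chr2:26591402-26591423 on the plus strand and miR-126b-5p at chr2:26591399-26591420 on the minus strand, so they overlap by 19 bases, both within the span of Egfl7. As annotated, they are antisense to each other. Read counts of miR-126a-5p and miR-126b-3p, whose hairpins also lie on opposite strands, were nearly the same in each library (ratio 0.972 to 1.0). The split between these names is thus uncertain, and whether reads were counted by strand was not tested. The miR-126b names are therefore not taken as separately measured antisense products. Likewise, miR-486a-5p and miR-486b-5p had equal reads in all 12 libraries and cannot be told apart. miR-298-5p (chr2:174267553-174267575) and miR-296-3p (chr2:174267058-174267079) both lie on the minus strand of the imprinted Gnas region, with hairpins 457 bases apart, and the hairpins of miR-212 and miR-132 lie 294 bases apart. miR-210-3p is at chr7:141221407-141221428, miR-7033-5p at chr5:135383783-135383805 within the span of Pom121, and miR-1968-5p at chr8:13189068-13189091 within that of Grtp1.

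The libraries held 1645456 to 5445215 reads (median 4204468), whereas the other points of the cohort held 1744 to 76906, and 1 read was worth 2.15 to 4.05 deposited CPM. Between the arms, log2 read totals differed by -0.17 (CM minus Ctrl; exact permutation test, two-sided p = 0.680) and the number of miRNAs above 0 by -15.7 (p = 0.519, exact permutation test). The blood cell miRNAs miR-142a-3p (118853 to 863230 CPM), miR-150-5p (261993 to 1044953 CPM), miR-223-3p (21752 to 84603 CPM) and miR-451a (78386 to 613096 CPM) were abundant in all 12 libraries. Of miRNAs of other tissues, miR-122-5p of liver was at 0 to 81.03 CPM, miR-206-3p of muscle at 0 to 187 CPM and miR-124-3p of neurons at 0 to 130 CPM. Other miRNAs assigned here to liver and muscle were higher, miR-194-5p at 4102 to 16569 CPM and miR-1a-3p at 649 to 7565 CPM. The vessel wall miR-143-3p was at 1132 to 10066 CPM and the epithelial miR-203-3p at 4811 to 10817 CPM.

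The libraries of mice 2684 and 2718, both CM, stood apart from the rest. Over 343 miRNAs at a mean of 100 CPM or more, Pearson's r of log2(CPM + 1) between mouse 2684 and the other libraries was 0.883 to 0.914. That library was the highest of the 12 for 29.4% of these miRNAs and the lowest for 19.5%. Mouse 2718, the library with the fewest reads, was the lowest for 154 and the highest for 4, and its r with the others was 0.895 to 0.962. With factors from the trimmed mean of M-values (TMM) set on these 12 libraries alone, mouse 2684 was the highest for 34.4% and the lowest for 24.5%, and mouse 2718 the lowest for 25.4%. Mouse 2718 alone held miR-8117, singled out after its values were seen, at 7441 CPM from 2028 reads against at most 12 reads in any other library. The last library of mouse 2684 was from point 6 and mouse 2718 had a library labelled L in place of point 7, whereas the other 10 mice had libraries to point 7.

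To learn which miRNAs differed between CM and Ctrl mice at this point, all 930 were tested with limma-trend on log2(CPM + 1). No miRNA had an adjusted p under 0.05 (0.0%), with or without mouse 2684. The smallest limma adjusted p was 0.816 with 12 libraries and 0.990 with 11. At an unadjusted p under 0.05 there were 54 miRNAs with 12 libraries (5.81%), 19 of them higher (2.04%) and 35 lower (3.76%) in CM mice. Without mouse 2684 there were 37 (3.98%), 15 higher (1.61%) and 22 lower (2.37%). Tests on the recovered reads called no miRNA either. At an unadjusted p under 0.05 there were 100 in edgeR (10.8%) and 82 in DESeq2 (8.82%) for 12 libraries, and 69 (7.42%) and 59 (6.34%) without mouse 2684. The smallest adjusted p was 0.343 in edgeR and 0.240 in DESeq2 for 12 libraries, and 0.284 in edgeR and 0.116 in DESeq2 without that mouse. The median log2 fold change over all 930 was -0.04 with 12 libraries and -0.09 with 11. Among miRNAs at a mean of 100 CPM or more, the 95% interval of the log2 fold change reached a median of 0.73 to each side with 12 libraries and 0.67 with 11. These intervals are not adjusted for the number of miRNAs, so even without adjustment most differences of under about this size were not detectable with these mice. The adjusted threshold was stricter. Log2 fold changes of over 1 in either direction were seen for 10 of 343 such miRNAs with 12 libraries and 6 of 339 with 11, and none was called.

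**Figure D1:**
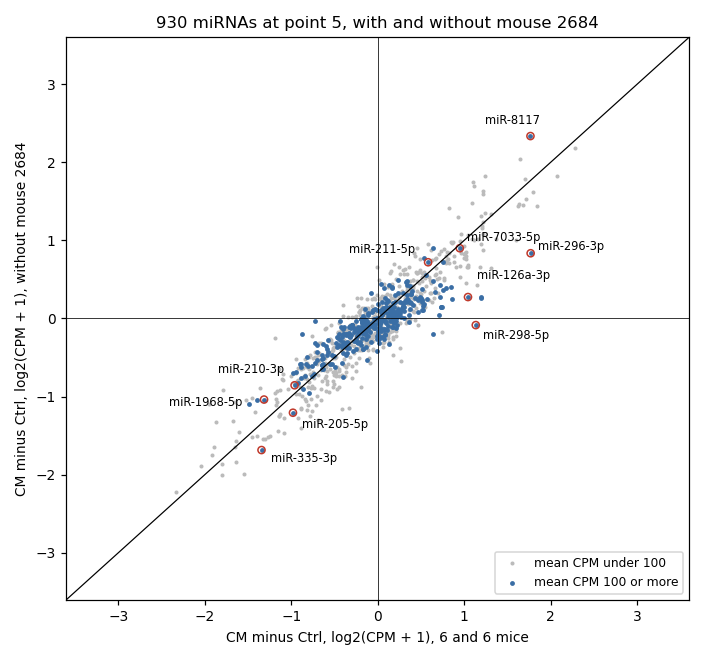
Log2 fold change, CM minus Ctrl on the log2(CPM + 1) scale, of 930 miRNAs with all 12 mice (horizontal) and without mouse 2684 (vertical), with a line of equality. miR-298-5p moves from 1.13 to -0.08 and miR-126a-3p from 1.04 to 0.27 when the mouse is left out, whereas miR-7033-5p, miR-210-3p and miR-205-5p stay near the line.

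For miR-126, the miRNA the study is about, mouse 2684 stood far above the Ctrl range and the other CM mice within or near it. miR-126a-3p was at 1347 CPM in the lowest, 1618 CPM at the median and 40098 CPM in the highest of 6 CM mice, and at 936 CPM, 1132 CPM and 2581 CPM in 6 Ctrl mice. The highest CM value was that of mouse 2684. The 5 other CM mice lay between 1347 and 2322 CPM, within the Ctrl range. Means were 8072 ± 15693 CPM (SD, n = 6) and 1459 ± 665 CPM (n = 6). The difference in mean log2(CPM + 1) was 1.04 (exact permutation test, two-sided p = 0.188, and 0.206 adjusted over both arms of miR-126a). Without mouse 2684 it was 0.27 (exact permutation p = 0.372, adjusted 0.409), with a 95% interval in limma of -0.35 to 0.89.

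The 5p arm of the hairpin was measured as well. miR-126a-5p was at 393, 639 and 29177 CPM (lowest, median and highest) in CM mice and at 319, 488 and 845 CPM in Ctrl mice. In the 5 CM mice other than 2684 the highest value was 968 CPM (mouse 2709), so that 2 of 6 CM mice lay above every Ctrl mouse. The log2 difference was 1.20 (exact permutation test, p = 0.206, adjusted 0.206) and fell to 0.27 without mouse 2684 (exact permutation p = 0.409, adjusted 0.409). miR-126b-5p, annotated on the opposite strand, was lower than miR-126a-3p. It was at 220, 292 and 4804 CPM in CM and 183, 256 and 523 CPM in Ctrl mice, again with mouse 2684 alone outside the Ctrl range. Its log2 fold change was 0.71 ± 0.56 (± SE; limma adjusted p = 0.941) and 0.04 ± 0.33 without that mouse (limma adjusted p = 0.994). Over its 4 listed arms, miR-126 had a median log2 fold change of 1.12 with 12 libraries and 0.27 with 11. As miR-126a-5p and miR-126b-3p had nearly the same reads, these are not 4 separate measures.

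Of the miRNAs higher in CM mice at the smallest unadjusted p, miR-7033-5p was the one whose arms did not overlap, which held for 1 of 930 miRNAs (0.108%). It was at 134.2, 163 and 206 CPM in CM mice and at 41.9, 93.04 and 130.4 CPM in Ctrl mice, so the lowest CM mouse lay only just above the highest Ctrl mouse. Its log2 fold change was 0.95 ± 0.35 (limma p = 0.0139, adjusted 0.816) and 0.90 ± 0.35 without mouse 2684 (p = 0.0170, limma adjusted 0.990). No miRNA had all CM mice below all Ctrl mice (0.0%).

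miR-296-3p had a positive log2 fold change with and without mouse 2684. It was at 80.6, 88.8 and 4552 CPM in CM mice and at 35.5, 47.8 and 85.97 CPM in Ctrl mice, and 4 of 6 CM mice lay above every Ctrl mouse. The log2 fold change of 1.77 ± 0.72 (limma adjusted p = 0.816) fell to 0.83 ± 0.36 without mouse 2684 (limma adjusted p = 0.990). The others of this group were miR-378d (38007, 54404 and 95060 CPM in CM; 27955, 35939 and 41044 CPM in Ctrl) and miR-211-5p (724, 1233 and 1766 CPM in CM; 605, 764 and 961 CPM in Ctrl), from the Trpm1 gene. For each, 4 of 6 CM mice lay above every Ctrl mouse. For miR-211-5p mouse 2684 was the lowest CM mouse, and the log2 fold change rose from 0.58 ± 0.29 to 0.72 ± 0.26 without it (limma adjusted p = 0.870 and 0.990). miR-3968 and miR-5121, with log2 fold changes of 0.85 ± 0.41 and 0.75 ± 0.40 (limma adjusted p = 0.857 and 0.870), overlapped more, as 2 and 1 of 6 CM mice lay above every Ctrl mouse.

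The 6 lower miRNAs of smallest p with 12 libraries were miR-1968-5p, miR-145a-5p, miR-210-3p, miR-99b-5p, miR-128-3p and miR-152-3p. miR-210-3p, which hypoxia induces through HIF-1, was at 326, 467 and 871 CPM in CM mice and at 549, 1093 and 1458 CPM in Ctrl mice. All 6 CM mice lay below the Ctrl median and 4 below every Ctrl mouse. The log2 fold change was -0.96 ± 0.34, and -0.86 ± 0.33 without mouse 2684 (limma adjusted p = 0.816 and 0.990). miR-128-3p, abundant in neurons, was at 7151, 18453 and 28620 CPM in CM mice and at 19443, 34536 and 48359 CPM in Ctrl mice, with log2 fold changes of -0.86 ± 0.34 and -0.90 ± 0.35 (limma adjusted p = 0.816 and 0.990). Again all 6 CM mice lay below the Ctrl median and 4 below every Ctrl mouse.

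For miR-1968-5p mouse 2684 was the lowest of all 12. It was at 58.3, 153 and 296 CPM in CM and at 225, 363 and 748 CPM in Ctrl mice, and the log2 fold change moved from -1.31 ± 0.41 to -1.04 ± 0.36 without that mouse (limma adjusted p = 0.816 and 0.990). miR-145a-5p, a smooth muscle miRNA, was at 36.1, 158 and 415 CPM in CM and at 136.4, 397 and 531.8 CPM in Ctrl mice, with log2 fold changes of -1.40 ± 0.50 and -1.04 ± 0.44 (limma adjusted p = 0.816 and 0.990). Its cluster mate miR-143-3p was at 1132, 2578 and 9340 CPM in CM and 2306, 7249 and 10066 CPM in Ctrl mice. miR-152-3p (1821, 3657 and 6243 CPM in CM; 4091, 6679 and 9075 CPM in Ctrl) had all 6 CM mice below the Ctrl median.

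**Figure D2:**
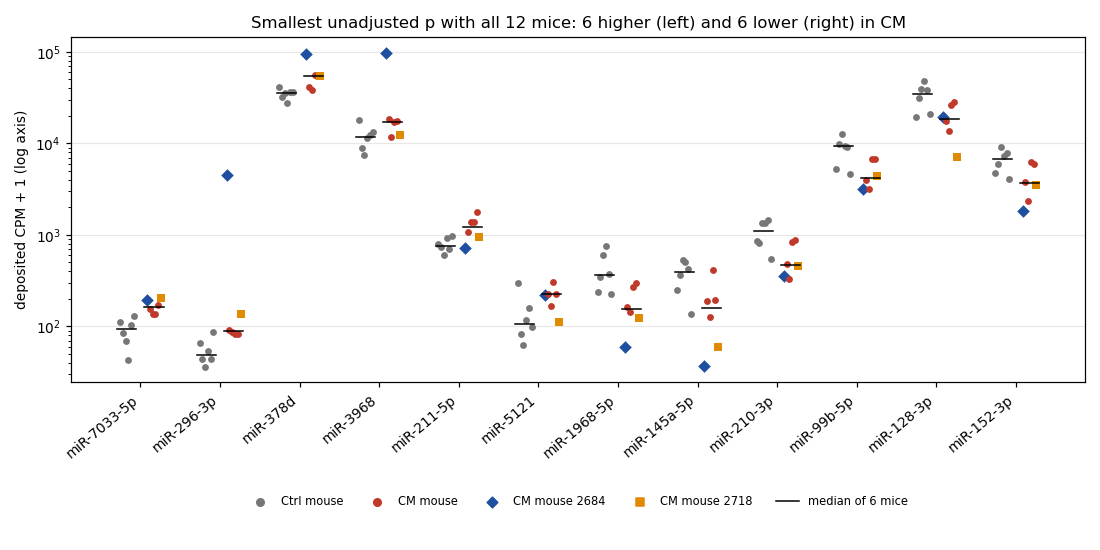
Deposited CPM + 1 on a log axis for each mouse (points) of the 6 higher and 6 lower miRNAs with the smallest unadjusted p with 12 libraries, with the median of each arm as a bar. The arms of miR-7033-5p do not overlap on this scale (134.2 to 206 against 41.9 to 130.4 CPM), those of the other 11 do, and mouse 2684 lies far above the rest for miR-296-3p (4552 CPM).

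Leaving out mouse 2684 brought in other lower miRNAs, for which that mouse was at or near the top of the CM arm. The epithelial miR-205-5p was at 1163 CPM in mouse 2684, between 186 and 839 CPM in the 5 other CM mice, and at 460, 1061 and 2560 CPM in Ctrl mice. Its log2 fold change was -0.98 ± 0.47 with and -1.21 ± 0.45 without mouse 2684 (limma adjusted p = 0.855 and 0.990). The summed level of the 14 epithelial miRNAs in the table ranged from 19422 to 42929 CPM in Ctrl mice and from 14424 to 34436 CPM in CM mice, and its part in the result was not tested. miR-335-5p, from the imprinted Mest gene, was at 425 CPM in mouse 2684, 121.8 to 436 CPM in the other CM mice and 234, 442 and 676 CPM in Ctrl mice (log2 fold change -0.80 ± 0.39 with and -0.96 ± 0.37 without that mouse; limma adjusted p = 0.864 and 0.990). For the other arm, miR-335-3p, the log2 fold changes were -1.34 ± 0.69 and -1.68 ± 0.68. These leaned on mouse 2718, the library with the fewest reads, which was at 3.67 CPM from 1 read. Ctrl mice were at 100.8 to 282 CPM, and 3 of the 5 CM mice other than 2684 lay below every Ctrl mouse. Under the alternative fits without mouse 2684, the log2 fold change of miR-335-3p ranged from -2.21 to -0.80.

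The higher miRNAs brought in without mouse 2684 were the muscle miRNAs miR-1a-3p and miR-1b-5p, whose reads differed by a factor of 1.03 to 1.34 and whose split is uncertain, and miR-3535. miR-1a-3p was at 649 CPM in mouse 2684, between 811 and 7565 CPM in the 5 other CM mice and at 704, 1109 and 1718 CPM in Ctrl mice. The log2 fold change was 0.90 ± 0.42 without mouse 2684 (limma adjusted p = 0.990), and 2 of 5 CM mice lay above every Ctrl mouse. The 7565 CPM was that of mouse 2685, and without mice 2684 and 2685 the log2 fold change of miR-1a-3p was 0.43. Mouse 2685 stood apart for the muscle group as a whole, at a median of 2.66 log2 units over the Ctrl mean against at most 1.17 in the 5 other CM mice. Of 8 muscle miRNAs tested, 3 were higher and 0 lower at an unadjusted p under 0.05 without mouse 2684, against 1.61% and 2.37% of all miRNAs, and 1 and 0 with it. These counts rested on mouse 2685, since without it 0 were higher and 1 lower, whether or not mouse 2684 was included.

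In mouse 2684 the miRNAs were ranked, with no test, by how far they lay outside the range of the other 11 libraries. Of 378 miRNAs considered, at a mean of 100 CPM or more in those 11 libraries or at 100 CPM or more in mouse 2684, 130 were highest and 68 lowest in this mouse. Of these, 54 lay over 1 log2 unit above the next library and 12 over 1 unit below it, and 24 and 1 lay over 2 units outside.

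The miRNAs of mouse 2684 that stood furthest above the others came largely from 3 loci. At the imprinted Gnas locus, miR-298-5p was at 12117 CPM against 45.2 to 117.6 CPM in the other 11 libraries, 144 times their median. Its neighbour miR-296-3p was at 4552 CPM against 35.5 to 135.8 CPM, a 56.5-fold difference, and miR-296-5p was at 1582 CPM. At the miR-126 locus, miR-126a-5p was 50.9-fold and miR-126a-3p 28.02-fold above the median of the others, and miR-126b-3p and miR-126b-5p were 50.6-fold and 18.01-fold above it. At the miR-212 and miR-132 locus, which CREB induces, miR-212-5p was at 688 CPM (12.9 to 49.5 CPM in the others) and miR-132-5p at 680 CPM (17.8 to 52.7 CPM). The 3p arms there were also highest in this mouse, miR-132-3p at 1049 CPM and miR-212-3p at 377 CPM. miR-31-5p was at 108507 CPM against 1357 to 6939 CPM, and miR-340-3p at 6264 CPM against 224 to 733 CPM. The last of these 10, miR-340-3p, lay 3.09 log2 units above the next library and the first miRNA left out, miR-31-3p, 3.05.

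**Figure D3:**
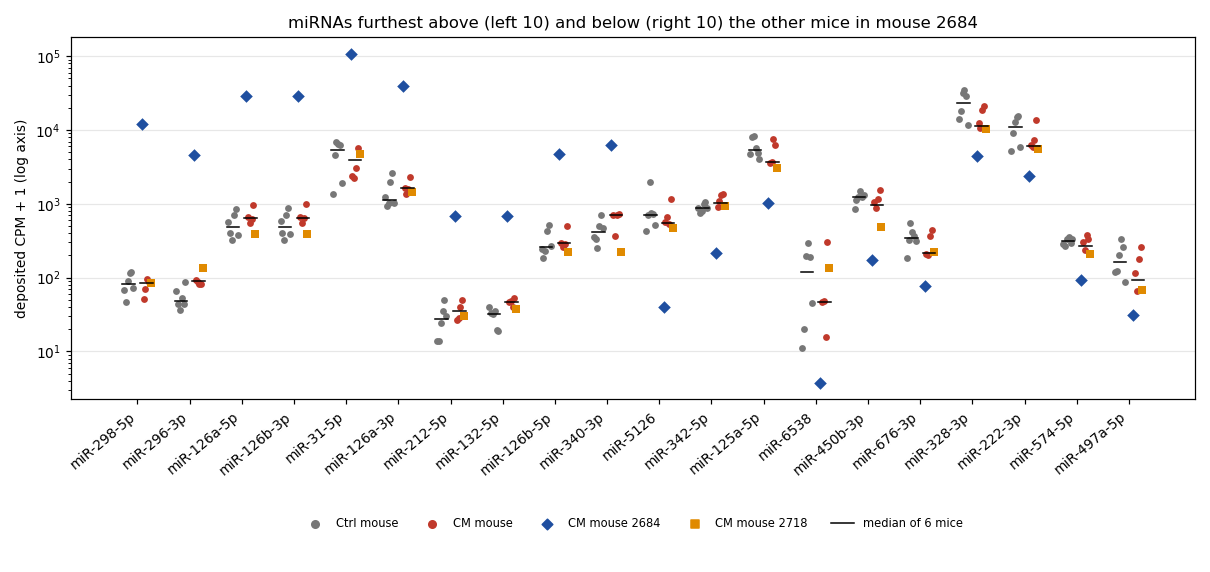
Deposited CPM + 1 on a log axis in each mouse (points; mice 2684 and 2718 have their own symbols, bars are medians of 6 mice) for the 10 miRNAs furthest above and the 10 furthest below the other libraries in mouse 2684. The left 10 lie 13.1-fold to 144-fold above the median of the other 11 libraries in this mouse, with the other CM mice overlapping the Ctrl mice.

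The 10 miRNAs furthest below the others lay less far away, under a filter that favoured the high side. miR-342-5p, of mature lymphocytes, was at 214 CPM in mouse 2684 and at 751 to 1369 CPM in the other 11 libraries. miR-125a-5p was at 1013 CPM against 3057 to 8225 CPM, and its neighbour let-7e-5p, 460 bases away, was 2.57 log2 units below the median of the others. miR-222-3p, which targets Kit, was at 2351 CPM against 5278 to 15519 CPM, and miR-328-3p was at 4457 CPM against 10259 to 34424 CPM. The remaining ones were miR-5126 (38.9 CPM, and 429 to 1995 CPM in the others), miR-450b-3p (175 CPM, and 481 to 1564 CPM), miR-676-3p (74.9 CPM, and 183 to 551 CPM), miR-574-5p (91.6 CPM, and 206 to 382 CPM), miR-497a-5p (30.5 CPM, and 64.6 to 332 CPM) and miR-6538, which rested on 1 read. The tenth lay 1.06 log2 units below the next library and the first left out, miR-1968-5p, 1.04.

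By group, mouse 2684 is described here without a test, and the first 3 groups hold miRNAs just chosen for their distance in this mouse, so their medians restate that choice. Its difference from the median of the other 11 libraries was -0.01 at the median over all 930 miRNAs, which were highest in this mouse in 207 cases and lowest in 110. It was 5.23 for the 4 miR-126 arms, 3.40 for the 4 of miR-132 and miR-212, and 3.69 for the 5 tested of the imprinted Gnas and Mest loci. Of the latter only the Gnas miRNAs were raised in this mouse, with differences of 7.15 for miR-298-5p, 5.80 for miR-296-3p and 3.69 for miR-296-5p, whereas those of the Mest miRNAs miR-335-5p and miR-335-3p were 0.50 and 0.66 and lay within the other libraries. Of 27 tested members of the miR-17-92 cluster and paralogs, which Myc induces, 13 were highest and 0 lowest in this mouse (median difference 1.11). Of the 7 platelet miRNAs, 5 were highest and 1 lowest (median 1.24). The highest include both arms of miR-126a, chosen for their distance, and the lowest was miR-223-5p (630 CPM). The difference was -1.30 for the miR-99, miR-100 and miR-125 group, with 6 of 8 lowest. It was -1.38 for miR-221 and miR-222, with 3 of 4 lowest, and -1.25 for the mature lymphocyte miRNAs, with 3 of 4 lowest. Of the latter, miR-150-5p was at 261993 CPM against 336145 CPM or more in the others. For the vessel wall miRNAs it was -2.09, and of 65 miRNAs of the imprinted Sfmbt2 cluster 11 were lowest and 1 highest (median -0.82).

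**Figure D4:**
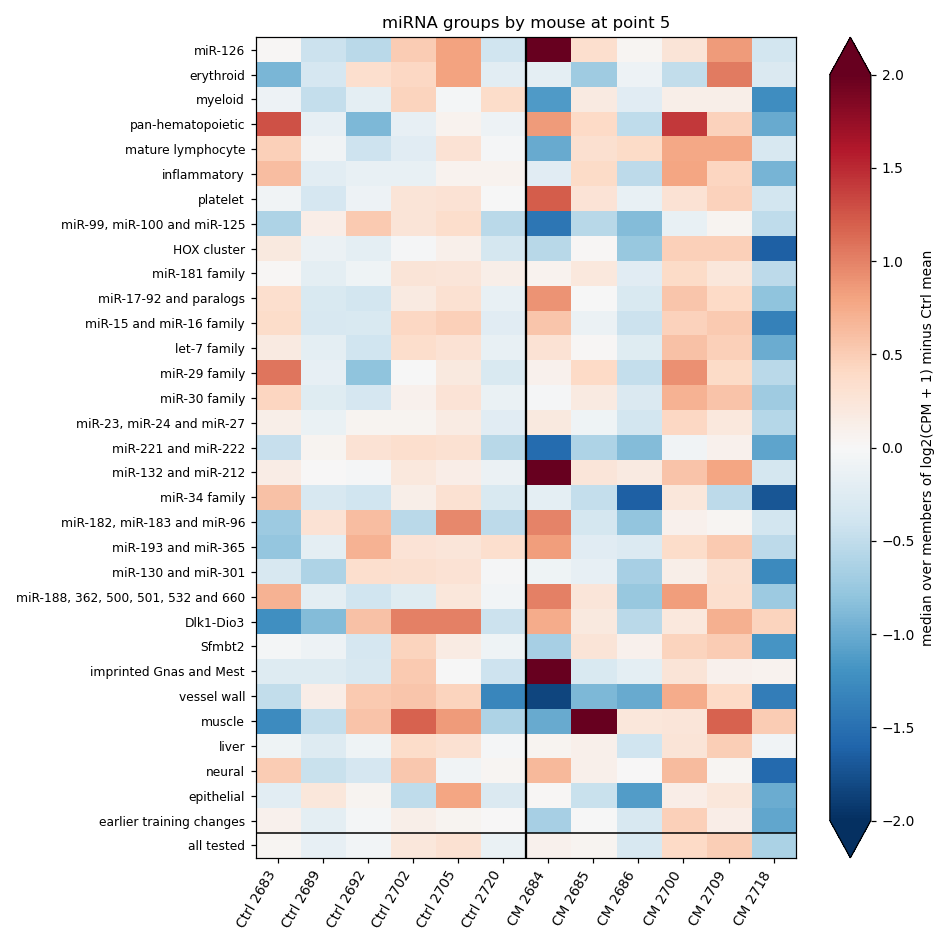
Median over the tested members of each miRNA group of log2(CPM + 1) minus the Ctrl mean, by mouse (Ctrl left, CM right; red above and blue below the Ctrl mean, colours end at 2 log2 units). Mouse 2684 has the deepest red for miR-126, miR-132 and miR-212, and the imprinted group, there through the Gnas miRNAs, and mouse 2718 is blue for most groups.

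Between the arms, no member of the 32 groups had an adjusted p under 0.05. In 19 groups no tested member had an unadjusted p under 0.05 with or without mouse 2684: miR-126, myeloid, pan-hematopoietic, mature lymphocyte, inflammatory, platelet, HOX cluster, miR-17-92, miR-15 and miR-16, let-7, miR-29, miR-30, miR-23 with miR-24 and miR-27, miR-182 with miR-183 and miR-96, miR-193 and miR-365, the Clcn5 cluster of miR-188 and miR-362, Dlk1-Dio3, liver and neural. Their median log2 fold changes lay between -0.31 and 0.36 without mouse 2684, and with it between -0.37 and 0.27 apart from miR-126. Of their most abundant members, miR-223-3p had medians of 51913 CPM (CM) and 51685 CPM (Ctrl) and let-7f-5p of 1095185 CPM (CM) and 918415 CPM (Ctrl), with log2 fold changes of -0.33 ± 0.31 and 0.03 ± 0.39.

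In the remaining 13 groups, 1 to 4 members of each passed an unadjusted p of 0.05 with 12 or with 11 libraries. Of 8 tested members of the miR-99, miR-100 and miR-125 group, 2 were lower with 12 and with 11 libraries, miR-99b-5p and miR-125a-3p, against 3.76% and 2.37% of all miRNAs, and the median log2 fold change was -0.63 with and -0.37 without mouse 2684. miR-99b-5p was at 3150, 4165 and 6835 CPM in CM and at 4634, 9310 and 12665 CPM in Ctrl mice, with 4 of 6 CM mice below every Ctrl mouse (log2 fold change -0.84 ± 0.31, limma adjusted p = 0.816). miR-99a-5p, of the same seed, differed by -0.37 ± 0.27 (limma adjusted p = 0.941). miR-125a-3p was listed at 0 in mouse 2684.

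miR-221-3p, from the group of 4 arms of miR-221 and miR-222, was at 44824, 63812 and 109354 CPM in CM and 71655, 122157 and 142942 CPM in Ctrl mice (log2 fold change -0.64 ± 0.30), and the group's median was -0.67 with and -0.48 without mouse 2684. The erythroid miR-451a was at 78386 CPM in mouse 2684, 120706 to 424217 CPM in the other CM mice and 219741 to 613096 CPM in Ctrl mice (log2 fold change -0.83 ± 0.37, and -0.59 without that mouse), whereas the median of the 7 erythroid miRNAs was -0.18 and -0.14. Further single members passed, lower in CM mice, in the miR-34 family (miR-34c-5p, -1.04 ± 0.41), the miR-130 and miR-301 family (miR-130a-3p, -0.89 ± 0.39), the vessel wall group (2 members) and the epithelial group (miR-205-5p). The group medians were -0.72, -0.37, -0.53 and -0.49 with 12 libraries and -0.83, -0.44, -0.31 and -0.48 with 11. The miR-181 family held 1 higher member with 12 libraries (median -0.07), miR-132 and miR-212 held 1 (miR-132-5p, 1.31 ± 0.59; median 0.79, and 0.24 without mouse 2684) and the 65 Sfmbt2 miRNAs held 1 higher and 1 lower (median -0.17), against 2.04% and 3.76% of all miRNAs. Without mouse 2684 the Sfmbt2 miRNAs held 2 higher, miR-466d-5p and miR-466n-5p, and 1 lower (median -0.03), against 1.61% and 2.37% of all. For the muscle group the median was 0.58 with and 0.81 without mouse 2684, 0.17 and 0.39 when mouse 2685 was also left out, and for the imprinted Gnas and Mest miRNAs 0.74 and -0.08. Of 25 miRNAs tested from a list of changes in the training cohort, which came from an earlier account of the same series, 2 were higher and 2 lower with 12 libraries (median -0.33; 2.04% and 3.76% of all miRNAs) and 1 and 2 with 11 (median -0.12; 1.61% and 2.37% of all).

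The other points allow a further look at mouse 2684, although those libraries are far shallower. In this mouse miR-126a-3p was listed at 0 at points 1 to 4 and at point 6. Values above 0 were listed there under miR-126b-5p, which overlaps it on the opposite strand. In mice other than 2684, miR-126b-5p was at 17.6 to 38.0 ppm (parts in 1000000 of a library's summed value) at point 5 and at 102.1 to 1911 ppm at point 6. Whether the libraries of the other points were counted on the other strand could not be settled, so levels are compared between mice within a point and not between points. miR-126b-5p in mouse 2684 was at 28228 ppm at point 6. There it lay between 102.1 and 1911 ppm in the 5 other CM mice, with the highest in mouse 2718, and between 170 and 428 ppm in the 6 Ctrl mice. At point 4 it was at 396 ppm in mouse 2684 and at 77.2 to 15664 ppm in 8 other CM mice, so mouse 2684 did not stand out there. At point 2 it was at 3536 ppm in mouse 2684. That was above the 9 other CM mice (142.5 to 2394 ppm) and the 6 Ctrl mice (53.9 to 229 ppm), in a library where 1 read was worth 196 ppm. At points 1 and 3 mouse 2684 lay within the range of the other CM mice. The library of point 6 in mouse 2684 held 15233 reads, if its smallest value stands for 1 read. Of the other miRNAs that were high in this mouse at point 5, miR-298-5p, miR-212-5p, miR-132-5p and miR-340-3p were listed at 0 at point 6, where 1 read was worth 65.7 ppm. The other mice were also at a median of 0 for each at point 6, except for miR-132-5p in Ctrl mice (12.1 ppm). miR-212-5p and miR-340-3p were at 0 in all mice at that point. As the strand counted may differ too, these zeros cannot show whether the miRNAs were still high in mouse 2684 at point 6. At point 6 miR-31-5p was at 131.3 ppm in mouse 2684, within the range of the 5 other CM mice (0 to 179 ppm). miR-296-3p was at 196.9 ppm there, below the 5 other CM mice (221 to 2343 ppm), from few reads at 65.7 ppm each. At point 4, however, miR-296-3p was at 2241 ppm in mouse 2684. That was above the 8 other CM mice (190 to 1635 ppm) and the 6 Ctrl mice (496 to 1097 ppm) of that point.

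**Figure D5:**
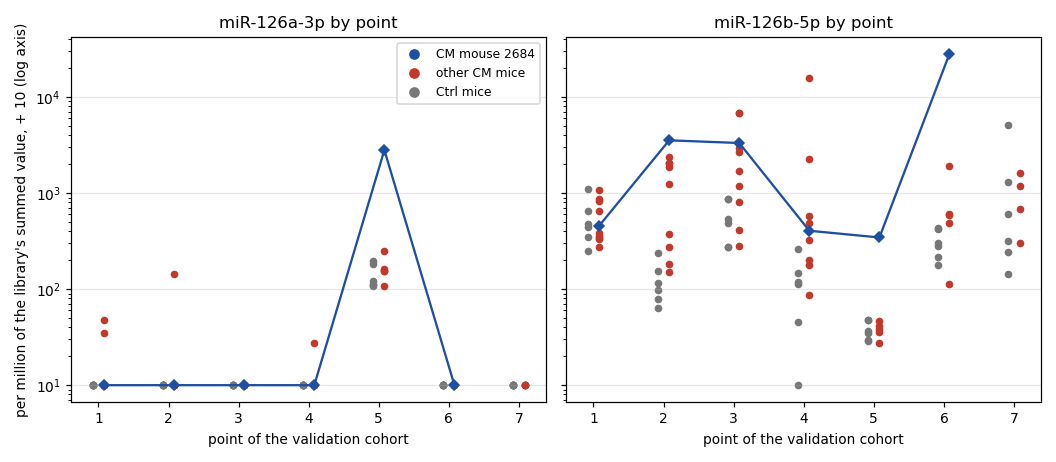
Share of each library's summed value, in ppm plus 10 on a log axis, of miR-126a-3p (left) and the overlapping opposite-strand miR-126b-5p (right) at points 1 to 7, with a line joining the libraries of mouse 2684. miR-126a-3p is the larger of both names at point 5 (2798 against 335 ppm in mouse 2684), and miR-126b-5p is at 28228 ppm in this mouse at point 6. The strand counted may differ between point 5 and the others, so only mice within a point are compared.

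The same miRNAs were then looked up in the training cohort, other mice whose deposited table was scaled separately, so that levels are compared within that table and without a test. There the last library of each of 7 CM mice, from months 4 to 10, was set beside 76 libraries of 7 Ctrl mice, from months 0 to 10 and so not matched in time. All 10 miRNAs furthest above the other mice in mouse 2684 had a higher median in the last CM libraries than in the Ctrl libraries, as did 178 of the 378 miRNAs considered (47.1%). These 10 include the 4 arms of miR-126. In the month 0 libraries of the 7 CM mice, miR-298-5p (median 24.05 CPM) and miR-296-3p (10.2 CPM) were higher than in the last ones (17.55 and 4.914 CPM). The others of these 10 had a lower median at month 0 than in the last CM libraries. miR-31-5p was at 355, 8554 and 15647 CPM (lowest, median and highest) in the last CM libraries and at 118.3, 239 and 1337 CPM in Ctrl libraries, and 6 of 7 CM mice lay above every Ctrl library. miR-340-3p, miR-212-5p and miR-132-5p also had 6 of 7 above, miR-126a-3p had 5 and miR-298-5p and miR-296-3p had 3. Of the 10 miRNAs furthest below, 9 had a lower median, all but miR-6538. miR-328-3p was at 228, 650 and 3437 CPM in the last CM libraries and 912, 2080 and 3946 CPM in Ctrl libraries, with 5 of 7 CM mice below every Ctrl library.

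Of the 6 lower miRNAs of smallest p at point 5 with 12 libraries, 5 had a lower median in the last CM libraries of the training cohort, as did 52.9% of the 378 miRNAs considered. miR-210-3p was at 33.7, 47.5 and 221 CPM there and at 65.6, 144 and 600 CPM in Ctrl libraries, with 5 of 7 CM mice below every Ctrl library, and miR-152-3p had 5 of 7 below as well. miR-128-3p went the other way, with medians of 3028 and 2485 CPM. Of the 6 higher ones, 4 had a higher median, against 47.1% of the 378, whereas miR-7033-5p was lower (8.21 and 11.7 CPM), as was miR-5121. Without mouse 2684, 4 of the 6 higher and 2 of the 6 lower miRNAs of point 5 had the same direction there, against 47.1% and 52.9%. With 6 miRNAs each, these counts are a description only. Both arms of miR-335, lower in CM mice at point 5, went the other way in the training cohort. There miR-335-5p had medians of 51.82 CPM in the last CM libraries and 30.66 CPM in Ctrl libraries, and miR-335-3p of 57.68 and 25.01 CPM.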

How the data were processed

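Small RNA was sequenced from PBMC RNA of the 12 mice of validation point 5. Per the labels and the study's methods, the authors ligated adapters, selected short inserts, trimmed reads with cutadapt, aligned them with Bowtie and deposited CPM scaled by TMM in edgeR. The methods name mm9 and the submitters' processing notes GRCm38, and the build was not settled. The deposited values are therefore treated as a scaled signal, since columns of point 5 summed to between 6037693 and 16258752 and not to 1000000. Libraries of this cohort were prepared in batches as collected, and the batch of a library is not given in the sources used here. Other scalings were therefore tried.

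All values at point 5 were whole multiples of their column's smallest value (100.0%, tolerance 0.001), which recovered reads for edgeR 4.0.16 and DESeq2 1.42.0. The tests were limma-trend (limma 3.58.1, R 4.3.3) on log2(CPM + 1), two-sided, with Benjamini-Hochberg adjustment over the 930 miRNAs that reached 1 CPM in 6 libraries. Fold changes on this scale understate those of low miRNAs. Exact two-sided permutation tests over mice (scipy 1.17.1) could reach 0.00216 at the smallest. The p-values cover the spread between mice of this cohort. Scripts were tested on simulated data. Authors' raw counts of the training cohort were not used here.

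Members, groups and tests were chosen with earlier results of these data known. Named were the miR-126 arms, the 6 higher and 6 lower miRNAs of smallest p at a mean of 100 CPM or more in each fit, the most abundant member of each of 32 groups, and the 10 miRNAs furthest above and below the others in mouse 2684. Further miRNAs were picked with their values in view. Sequences came from RefSeq (GRCm38.p6), whose table matched 754 of 930 tested miRNAs. Alternatives were other pseudocounts, filters, scalings, tests, sex as a covariate, array weights and each mouse left out. Leaving out mice 2684 and 2718 together was added after seeing the data.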

Additional observations from a re-analysis of the deposited data

Results flagged for a closer look

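In each arm of 6 mice, a library was singled out where its gap to the nearest other one, as a share of the arm's range of log2(CPM + 1), exceeded Dixon's 95% critical value. Chance gives this in about 1 of 20 groups where members are chosen without regard to their values. Among the 66 named miRNAs, reads and miRNAs above 0 in both arms, 20 were found. Many of the 66 were named for their values in these same libraries, so the count of 20 cannot be set against that rate. Mouse 2684 accounted for 13 of the 20. It was the highest CM mouse for miR-126a-3p (40098 CPM), miR-126b-3p (29291 CPM), miR-126a-5p (29177 CPM), miR-126b-5p (4804 CPM), miR-296-3p (4552 CPM), miR-298-5p (12117 CPM), miR-3968 (97522 CPM), miR-31-5p (108507 CPM), miR-212-5p (688 CPM), miR-132-5p (680 CPM) and miR-340-3p (6264 CPM), and the lowest for miR-5126 (38.9 CPM) and miR-342-5p (214 CPM). Most of these miRNAs were named for this distance. Mouse 2718 was the lowest CM mouse in reads (1645456), in miR-92a-3p (35508 CPM) and in miR-16-5p (111305 CPM). Among Ctrl mice, mouse 2683 was the highest for miR-10a-5p (159376 CPM) and miR-362-5p (7944 CPM), and mouse 2692 was the lowest for miR-467e-5p (2760 CPM) and the highest for miR-5126 (1995 CPM).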

How the results depend on the processing

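No miRNA passed an adjusted p of 0.05 in any of 45 alternative fits with limma, edgeR or DESeq2. At an unadjusted p under 0.05 these held 22 to 100 miRNAs, the fewest with a minimum of 10 CPM and without mouse 2684, the most in edgeR with 12 libraries. Rescaling to column sums moved the split from 19 higher and 35 lower to 19 and 62, edgeR to 54 and 46, array weights to 33 and 32, and leaving out mouse 2718 to 31 and 20. The median of all miRNAs was 0.11 without mouse 2718 and -0.13 without mouse 2709. The differences of miR-126a-3p and miR-126a-5p rest on mouse 2684, since leaving out 1 mouse at a time gave 0.27 to 1.25 and 0.27 to 1.51, and without mice 2684 and 2718 they were 0.32 and 0.43 (exact permutation p = 0.357 and 0.219). The fold changes followed under alternatives were those of the miR-126 arms and of miRNAs named for a small p in these same libraries. The alternatives refit the same mice, and some of them coincide, so a kept direction is not independent support. Of 720 such log2 fold changes, 716 kept their direction. The exceptions were those of miR-126b-5p without mouse 2684, at -0.01, -0.10, -0.03 and -0.15 when Ctrl mouse 2683, 2689 or 2692 or CM mouse 2709 was also left out (range -0.15 to 0.21 over mice left out). For miR-126a-3p, edgeR, which compares mean levels, gave 2.51 with 12 libraries. No paired analysis was possible because CM and Ctrl mice share no number in the labels. With 6 mice an arm and these spreads, smaller differences were not detectable. Log2 differences of over 1 went uncalled as well.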
